A study of Bos taurus with 8 samples.

Results

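Protein disulfide isomerases are thioredoxin-fold enzymes of the endoplasmic reticulum (ER) lumen that form, break and rearrange the disulfide bonds of secreted and membrane proteins. Each round of disulfide formation leaves the isomerase reduced, and it is reoxidised by the flavoprotein oxidases of the ERO1 family, which pass the electrons on to oxygen and release hydrogen peroxide. The ER peroxiredoxin PRDX4 consumes that peroxide and can itself oxidise isomerases. Granulosa cells, which line the ovarian follicle, secrete cysteine-rich hormones such as inhibin, activin and follistatin, whose subunits are joined or stabilised by disulfide bonds. The genes described here were 7 isomerases or isomerase-like proteins (*P4HB*, *PDIA3*, *PDIA4*, *PDIA5*, *PDIA6*, *TXNDC5* and *TXNDC11*), the oxidases *ERO1A* and *ERO1B*, and *PRDX4*. They were chosen by symbol, with earlier results of these data known, and all 10 were found among the 26804 genes listed.

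Granulosa cells were taken by ovum pick-up, which draws the fluid and cells of follicles into a needle under ultrasound, from a single herd of multiparous, non-pregnant and non-lactating beef cows (*Bos taurus*), labelled Angus by the submitters and described as crossbred in the study's methods, with no age given. In both seasons the cows had carried a progesterone-releasing vaginal device and received injections of a GnRH analog and of FSH to stimulate follicular growth. The same animals were sampled in winter and in summer, and there were 4 libraries of summer (replicates 1, 2, 3 and 5) and 4 of winter (1, 3, 4 and 5), each from the pooled RNA of a pair of cows. Each season was a single collection, so season and collection cannot be told apart, and the p-values measure the spread between pools. The cells were spun down from the aspirate, and no step to remove other cells is described. Levels are given as scaled TPM (TPM, a share of transcripts per length, taken over all genes but the 13 protein genes of the mitochondrial genome, after which a factor per library was applied by the trimmed mean of M-values). TPM is per transcript length, so levels are set side by side between genes here. Only length is allowed for, so such comparisons between genes are approximate. The study gives the number of reads only as an average over the libraries, so that the depth of each is unknown here and no counting error could be given.

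The libraries carried the markers of granulosa cells, together with markers of other cells, most of which differed by season. In winter replicate 3 the summed red blood cell markers, at 42418 scaled TPM, exceeded the granulosa markers, at 18914. All 12 granulosa markers on the list were measured in both seasons. The inhibin alpha subunit *INHA* was at 9038 to 40782 scaled TPM and the FSH receptor *FSHR* at 43.7 to 173. The 12 markers summed to 30315 to 80361 scaled TPM in summer and 14840 to 20063 in winter, and 8 of them were called higher in summer. *FOXL2* went the other way (log2 fold change -0.75, limma adjusted p = 0.0992) and, like *CYP19A1* and *GATA4*, did not pass the adjusted p. The 10 leukocyte markers summed to 32.5 to 131 in summer and 351 to 776 in winter, with 9 of 10 called lower in summer. The 8 markers of B and plasma cells, the latter rich in ER folding enzymes, summed to 10.4 to 27.5 and 58.0 to 107, with 3 called lower. The summed markers of red blood cells (39.0 to 98.9 in summer, 566 to 42418 in winter), fibroblasts (158 to 283 and 361 to 1112) and ovarian surface epithelium (215 to 536 and 1050 to 2982) were likewise lower in every summer library, while those of theca cells overlapped (122 to 308 and 67.4 to 474). Called lower in summer were 3 of 3 red blood cell markers tested, 4 of 8 of fibroblasts, 5 of 6 of surface epithelium and 0 of 3 of theca cells (0 at an unadjusted p under 0.05). The fibroblast marker *LUM* (log2 fold change 1.22) and the epithelial marker *EPCAM* (2.49) were called higher. No marker was at 0 in all libraries, and the part of these cells in the results was not tested. Markers of oocytes and of ciliated cells were not listed, so the lists do not cover every cell type that may differ by season. Among the granulosa cell genes most raised in summer, the study names *ZP2*, of the zona pellucida, and the axonemal dyneins *DNAH6*, *DNAH10* and *DNAH11*. The 13 mitochondrial protein genes, called mitochondrial genes below, held 50.7% to 87.7% of deposited TPM in summer and 85.1% to 92.0% in winter. In bulk RNA of this kind, fewer cells of a type and less RNA per cell cannot be told apart.

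Of the 10 disulfide-forming enzymes, 5 were called higher in summer and 4 did not pass the adjusted p. By limma with Benjamini-Hochberg adjustment, *PDIA3*, *PDIA4*, *PDIA6*, *ERO1A* and *PRDX4* were called higher in summer, that is, with a change of at least 2-fold, an adjusted p of at most 0.05 and expression above the zFPKM threshold in all 4 summer libraries. These 5 of 10 compare with 6.14% of all 13046 genes tested that were called higher, and none of the 10 was called lower, against 6.67%. Another, *PDIA5*, passed the adjusted p under 2-fold, which makes 6 of 10 against 11.0% of all genes (0 lower against 10.2%), and 8 of 10 had an unadjusted p under 0.05, all toward higher values in summer (0 toward lower). All 10 log2 fold changes (summer minus winter, of scaled TPM + 1) were positive, as were 52.2% of those of all genes. They ran from 0.45 to 1.87, with a median of 1.15. The median was 0.03 over all genes and 1.21 over the 12 granulosa markers. As the 10 genes were chosen with earlier results of these data known, these shares and medians are a description and not a test. All 10 were above the expression threshold in all 8 libraries, so that none entered the test through its summer level alone. The same 5 genes were called whichever of the 8 libraries was left out, and *PDIA5* joined them without summer replicate 3.

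**Figure D1:**
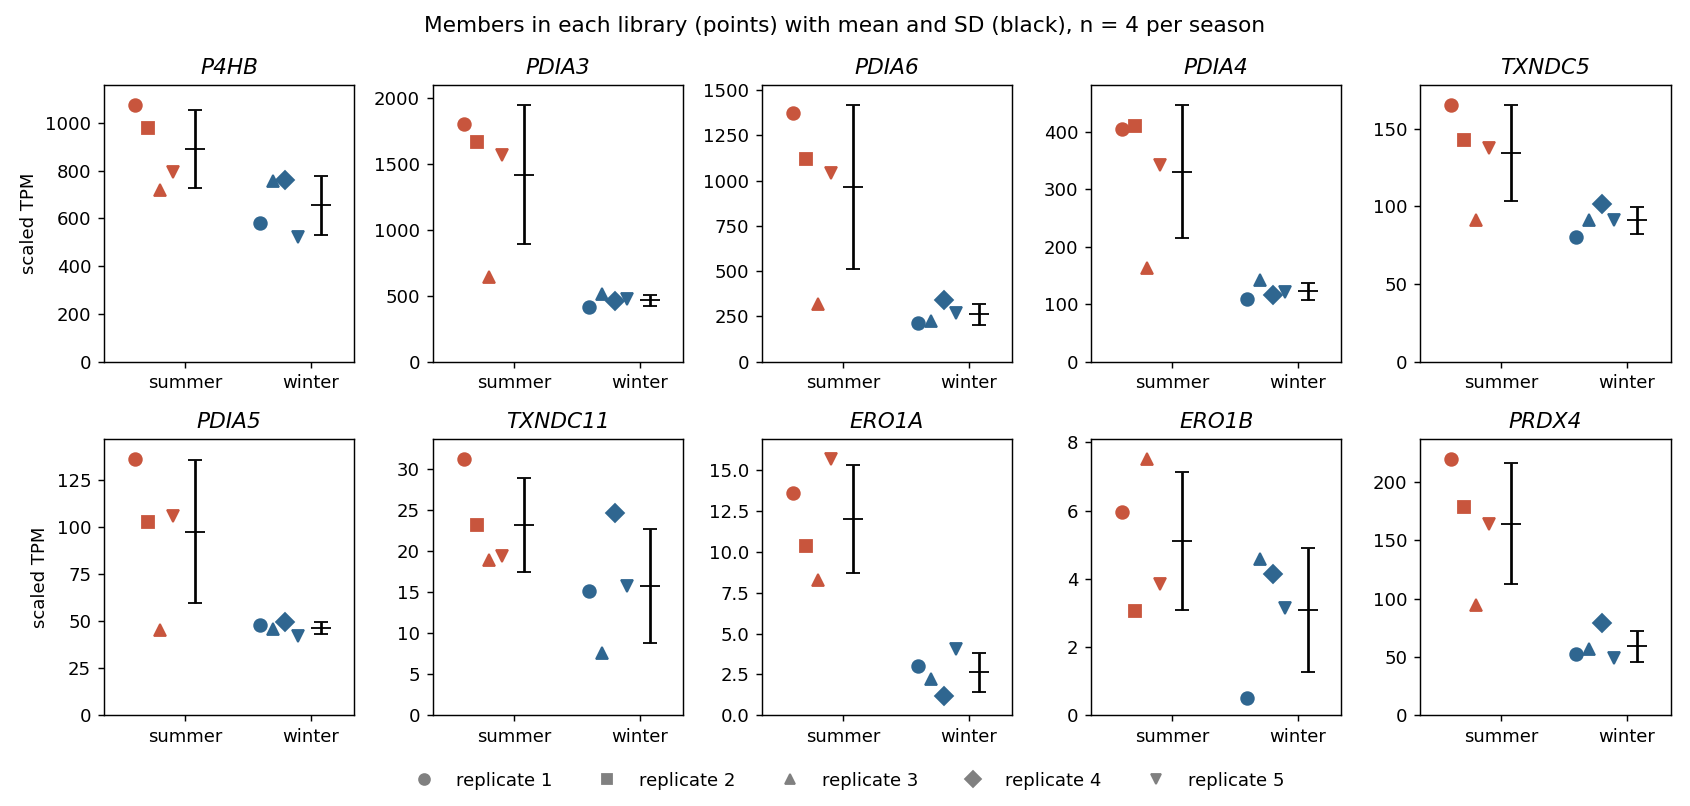
Scaled TPM of each gene in the 4 summer (red) and 4 winter (blue) libraries, with the symbol marking the replicate number and the black bar the mean and SD. Every summer library lies above every winter library for *PDIA3*, *PDIA4*, *ERO1A* and *PRDX4*, and summer replicate 3 (triangle) is the lowest summer library for 9 of the 10 genes.

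*PDIA3* encodes ERp57, the isomerase that works with the lectins calnexin and calreticulin on newly made glycoproteins. It was at 1801, 1665, 644 and 1565 scaled TPM in summer (replicates 1, 2, 3 and 5, in this order throughout) and at 412, 518, 459 and 473 in winter (replicates 1, 3, 4 and 5). Every summer library lay above every winter library, although summer replicate 3 stood much nearer to winter than the other 3 did. Its summer mean was 1419 ± 525 (SD, n = 4) and its winter mean 465 ± 43.6 (SD, n = 4). This is a log2 fold change of 1.51 (standard error 0.28, 95% interval 0.88 to 2.13, limma adjusted p = 0.00574). *PDIA6*, the BiP-associated isomerase also called P5, was at 1373, 1117, 319 and 1043 scaled TPM in summer and at 213, 224, 342 and 272 in winter. Here the seasons overlapped, since summer replicate 3 fell below winter replicate 4, while the other 3 summer libraries lay far above every winter library. Its log2 fold change was 1.71 (standard error 0.39, 95% interval 0.85 to 2.56, limma adjusted p = 0.0125). *PDIA4* encodes ERp72, an isomerase with an additional thioredoxin-like domain. It was at 405, 410.5, 163 and 343 scaled TPM in summer and at 109, 143, 117 and 121 in winter, again with summer replicate 3 closest to winter but no overlap (log2 fold change 1.34, standard error 0.26, 95% interval 0.76 to 1.93, limma adjusted p = 0.00666).

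*P4HB*, the founding isomerase of the family, is also the beta subunit of collagen prolyl 4-hydroxylase and the small subunit of the microsomal triglyceride transfer protein. Its log2 fold change was smaller than those of *PDIA3* and *PDIA6* in the same libraries, and whether they differ was not tested. Its levels were 1072, 976, 718 and 792 scaled TPM in summer and 579.8, 756, 759 and 520.3 in winter. Summer replicate 3 lay within the winter range. The means of 890 ± 163 (SD, n = 4) and 654 ± 122 (SD, n = 4) gave a log2 fold change of 0.45 (standard error 0.17, limma adjusted p = 0.0932), and the 95% interval of 0.06 to 0.83 does not reach 2-fold. *TXNDC5*, the isomerase ERp46, was at 165, 143, 91.4 and 137 scaled TPM in summer and at 80.4, 91.3, 102 and 91.2 in winter (log2 fold change 0.53, standard error 0.18, limma adjusted p = 0.0603), and its 95% interval of 0.13 to 0.92 also ends under 2-fold. For this gene, too, summer replicate 3 stood among the winter libraries and the other 3 stood above them.

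*PDIA5*, the isomerase PDIR, had the tightest winter values of the 10, at 48.1, 45.9, 49.4 and 42.3 scaled TPM, a coefficient of variation of 6.68%. In summer it was at 136, 103, 45.1 and 106, so that 3 libraries were more than 2 times every winter value and summer replicate 3 lay inside the winter range. It passed the adjusted p just under the fold threshold (log2 fold change 0.95, standard error 0.28, limma adjusted p = 0.0364), and without summer replicate 3 it was called (log2 fold change 1.28, limma adjusted p = 0.000772). Leaving out any other library raised its limma adjusted p above 0.05, to 0.105 at most. *TXNDC11* encodes a membrane-bound thioredoxin-domain protein known in human cells as a partner of the dual oxidases. It was at 31.2, 23.1, 18.9 and 19.4 scaled TPM in summer and at 15.1, 7.63, 24.6 and 15.8 in winter, where winter replicate 4 exceeded 3 of the summer libraries. Its log2 fold change of 0.60 (standard error 0.31, 95% interval -0.09 to 1.29, limma adjusted p = 0.193) did not pass the test.

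Of the oxidases, *ERO1A*, the broadly expressed family member whose gene is known to be induced by hypoxia, had the largest log2 fold change of the 10. It was at 13.6, 10.4, 8.28 and 15.7 scaled TPM in summer and at 3.02, 2.20, 1.21 and 4.08 in winter. The lowest summer library was about 2 times the highest winter library, and summer replicate 3 deviated less from the season's mean here (-0.45 on the log2 scale) than for *PDIA3* (-1.03) or *PDIA6* (-1.40), though more than for *P4HB* (-0.29). The means were 12.0 ± 3.30 (SD, n = 4) and 2.63 ± 1.22 (SD, n = 4), with a log2 fold change of 1.87 (standard error 0.32, 95% interval 1.17 to 2.57, limma adjusted p = 0.00363). The added 1 compresses the fold of a gene this low, and with an added 0.1 the log2 fold change was 2.23. *ERO1B*, best known from the insulin-secreting cells of the pancreas, was at 5.96, 3.07, 7.51 and 3.85 scaled TPM in summer and at 0.495, 4.58, 4.14 and 3.15 in winter. Its seasons overlapped widely, and summer replicate 3, the lowest summer library for the other 9 genes, was the highest for this one. The log2 fold change of 0.68 (standard error 0.44, 95% interval -0.28 to 1.64, limma adjusted p = 0.291) did not pass, and the interval includes both no change and a change beyond 2-fold.

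*PRDX4*, the peroxiredoxin of the ER lumen, was at 219, 178, 94.6 and 164 scaled TPM in summer and at 52.9, 56.6, 78.7 and 49.1 in winter. Every summer library lay above every winter library, with summer replicate 3 and winter replicate 4 nearest to each other. The log2 fold change was 1.41 (standard error 0.25, 95% interval 0.87 to 1.96, limma adjusted p = 0.00404). In all, 4 of the 10 genes (*PDIA3*, *PDIA4*, *ERO1A* and *PRDX4*) had no overlap between seasons in scaled TPM toward higher summer values, beside 13% of all genes tested (1698 of 13046), and none had the opposite separation, beside 11.3%. In deposited TPM all 10 were without overlap, but so were 44.7% of all genes, and the mitochondrial share there differs between seasons as given above.

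**Figure D2:**
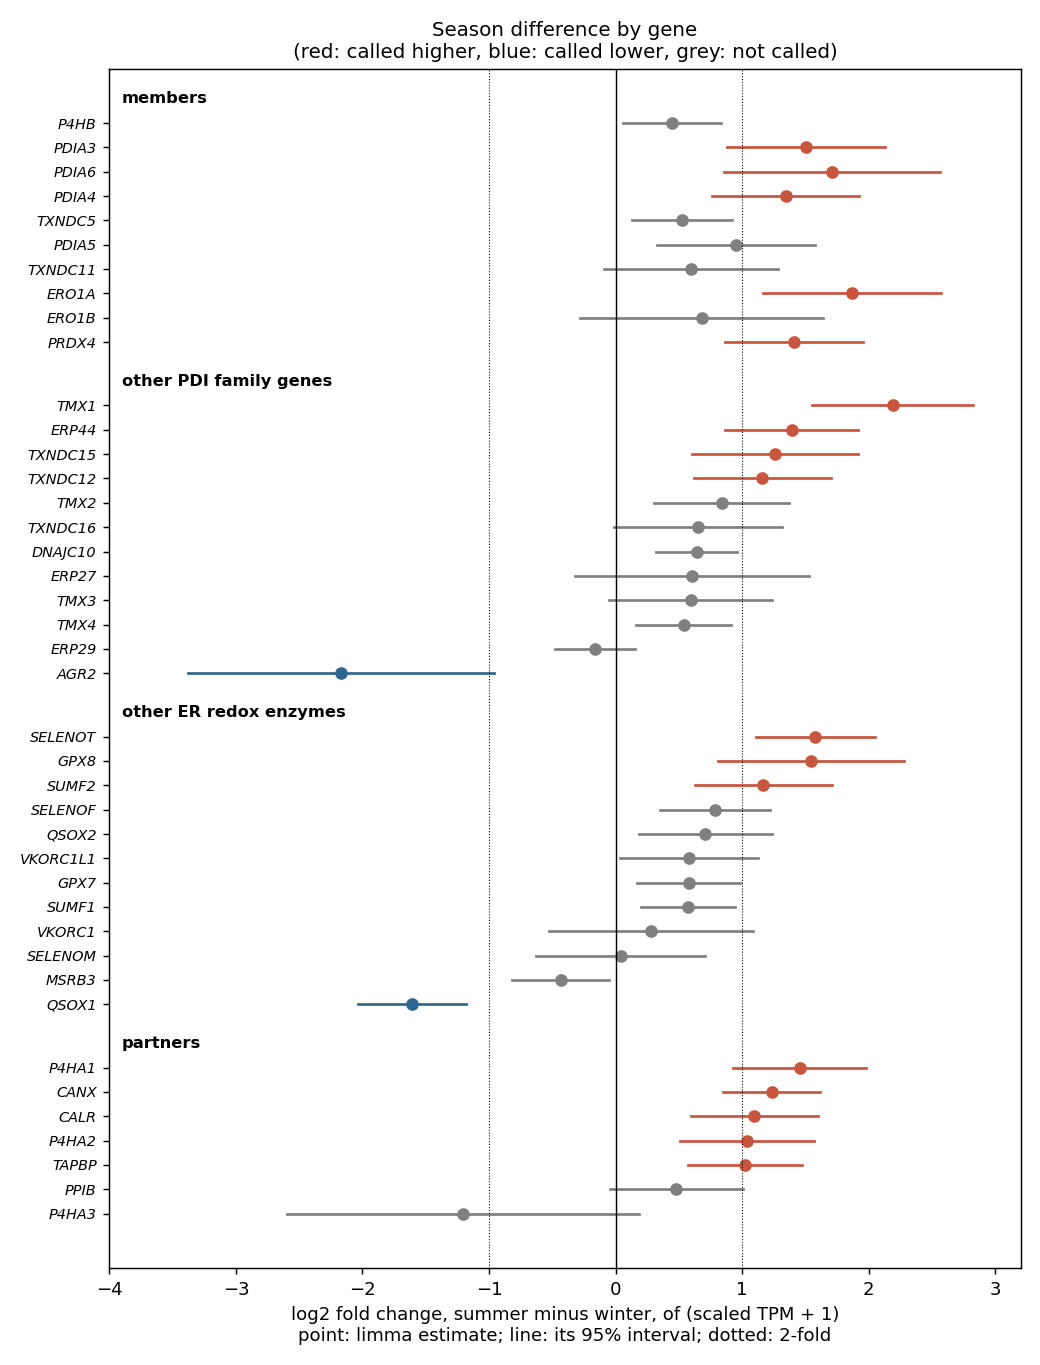
Log2 fold change (summer minus winter) of scaled TPM + 1 with its 95% interval from limma for the 10 members and for 3 lists of related genes, with called genes in red (higher in summer) or blue (lower) and dotted lines at 2-fold. *ERO1A*, *PDIA6*, *PDIA3*, *PRDX4* and *PDIA4* are red among the members, while *AGR2* and *QSOX1* are the blue genes.

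The order of the genes by level differed between seasons at its upper end. In winter *P4HB* was the most abundant of the 10 in every library, followed by *PDIA3* at 465 ± 43.6 and *PDIA6* at 263 ± 58.6 scaled TPM (SD, n = 4). In summer *PDIA3* led, and *P4HB* ranked below both *PDIA3* and *PDIA6* in 3 of 4 libraries, the exception being summer replicate 3, which kept the winter order. Summer means of *PDIA6* (963 ± 452) and *P4HB* (890 ± 163) lay within their SDs of each other. *PDIA3* exceeded *PDIA6*, *PDIA6* exceeded *PDIA4*, and *PDIA4* exceeded all 6 remaining genes in all 8 libraries. Below them, *PRDX4* was above *TXNDC5* in all 4 summer libraries and below it in all 4 winter libraries. *PDIA5* was below both of these and above *TXNDC11* in all 8. The oxidases were the scarcest at both ends of the year, and *ERO1A* was above *ERO1B* in all 4 summer libraries but only in winter replicates 1 and 5.

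Ranks within a library do not depend on any scaling between libraries. Ranked were the genes above 0 other than the 13 mitochondrial protein genes (13499 to 14845 per library). *PDIA3* ranked 84 to 176 in summer and 249 to 307 in winter, and *PDIA6* ranked 112 to 348 and 392 to 597. *P4HB* ranked 140 to 169 in summer and 176 to 251 in winter, a shorter move without overlap. In scaled TPM, the seasons of both *P4HB* and *PDIA6* overlapped. *ERO1A* ranked 5097 to 7008 in summer and 9082 to 11922 in winter. *PRDX4* ranked 606 to 1205 and 1508 to 2219. Ranks of *PDIA5* overlapped (984 to 2373 and 2213 to 2501), as did those of *TXNDC5*, *TXNDC11* and *ERO1B*. The share of all genes without overlap in rank was not computed, so the rank separations are a description only.

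**Figure D3:**
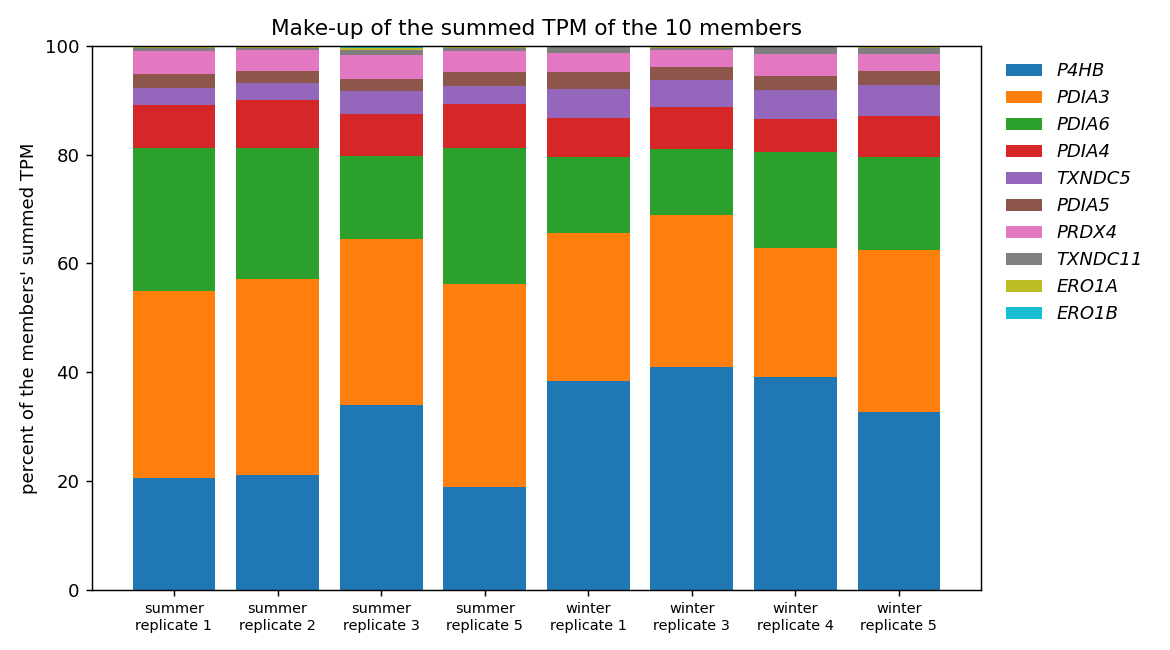
Share of each gene in the summed TPM of the 10 genes, by library, in percent. *P4HB* takes 18.9% to 34.0% in the summer libraries and 32.7% to 40.9% in the winter libraries, and summer replicate 3 resembles winter in its *P4HB* and *PDIA6* shares.

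The make-up of the enzyme pool, which is likewise free of scaling, moved from *P4HB* toward *PDIA3* and *PDIA6*. These values are a description and were not tested. *P4HB* made up 20.5%, 21.1%, 34.0% and 18.9% of the summed TPM of the 10 genes in summer replicates 1, 2, 3 and 5, and 38.3%, 40.9%, 39.2% and 32.7% in winter replicates 1, 3, 4 and 5. Summer replicate 3 alone overlapped the winter range. *PDIA3* made up 30.5% to 37.4% in summer and 23.7% to 29.7% in winter, without overlap. *PDIA6* took 26.3%, 24.1%, 15.1% and 24.9% in summer and 12.1% to 17.7% in winter. The share of *TXNDC5* was smaller in summer (3.09% to 4.33% against 4.94% to 5.73%). *ERO1A* held 0.224% to 0.393% in summer and 0.0626% to 0.256% in winter.

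The ratios of *ERO1A* and *PRDX4* to *P4HB*, an isomerase that ERO1 enzymes are known to oxidise, were higher in every summer library than in any winter library. The TPM ratio of *ERO1A* to *P4HB* was 0.0127, 0.0106, 0.0115 and 0.0198 in summer and 0.00520, 0.00291, 0.00160 and 0.00783 in winter. No summer library fell into the winter range, and summer replicate 3 was not apart from the other summer libraries in this ratio. *PRDX4* to *P4HB* was 0.205, 0.182, 0.132 and 0.207 in summer and 0.0912, 0.0748, 0.104 and 0.0944 in winter, also without overlap. *PDIA3* to *P4HB* was 1.68, 1.70, 0.896 and 1.97 in summer and 0.710, 0.684, 0.604 and 0.909 in winter, where summer replicate 3 lay just under winter replicate 5. *ERO1A* to *ERO1B* ranged from 1.10 to 4.07 in summer and from 0.293 to 6.09 in winter, so that the balance of the oxidases overlapped between seasons. The ratios of *PDIA3* and *PDIA6* to *P4HB* were added after the data were seen.

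**Figure D4:**
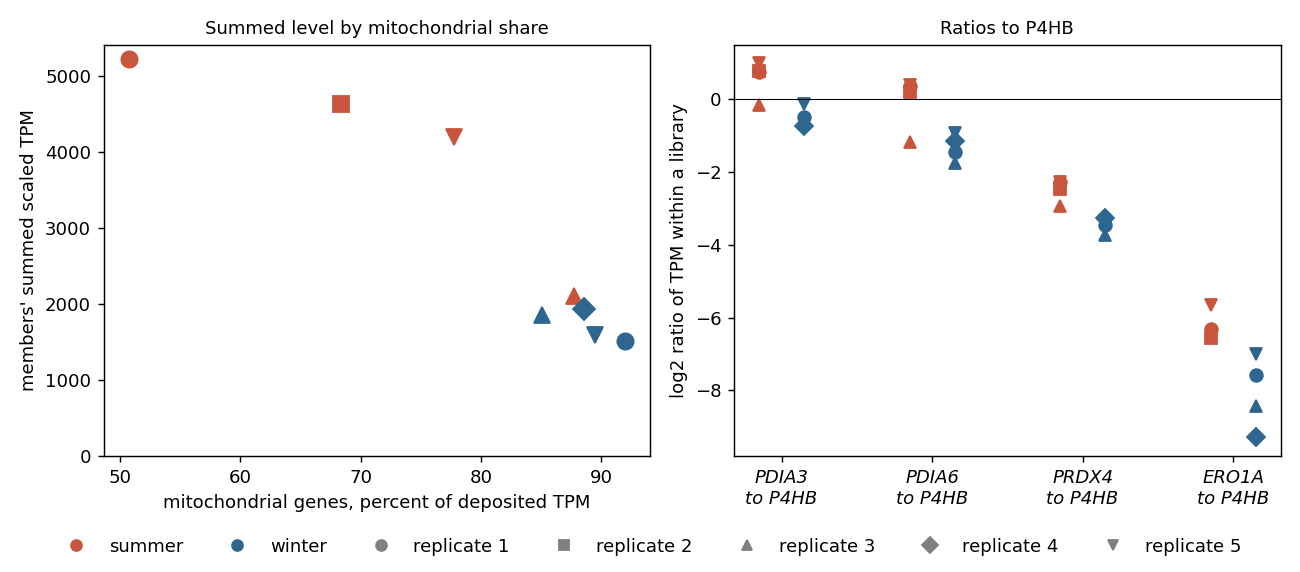
Left, summed scaled TPM of the 10 genes against the percent of deposited TPM held by mitochondrial genes, per library. Right, log2 ratios of TPM to *P4HB* within each library. Summer replicate 3, at 87.7% mitochondrial TPM, lies close to the winter libraries on the left and inside their range for *PDIA3* and *PDIA6* on the right, but not for *PRDX4* and *ERO1A*.

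Within summer, the libraries were spread along the same axis for most of the genes. Summer replicate 1 held the highest value of 7 genes and summer replicate 3 the lowest of 9. In summer replicates 1, 2, 3 and 5 the 10 genes summed to 5223, 4628, 2110 and 4189 scaled TPM, where mitochondrial genes held 50.7%, 68.4%, 87.7% and 77.7% of deposited TPM. In winter replicates 1, 3, 4 and 5 the sums were 1513, 1849, 1936 and 1591, with mitochondrial shares of 92.0%, 85.1%, 88.5% and 89.5%. Summer replicate 3 thus had both the mitochondrial share and the enzyme level nearest to winter, and its granulosa markers, at 30315, were also the lowest of summer. Its leukocyte markers, at 131, were the highest of summer but below every winter library.

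When each library's mitochondrial share entered the limma fit beside season, which was decided only once the data had been looked at, none of the 10 genes was called, beside 0.759% of all genes called higher. All 10 log2 fold changes stayed positive, at 0.13 (*P4HB*) to 1.71 (*ERO1A*) with a median of 0.70, and 5 of 10 had an unadjusted p under 0.05, beside 10.1% of all genes with the same direction. The 5 genes called without the covariate had adjusted p-values of 0.0728 to 0.213 with it, and *ERO1A* changed least in size. Of the summer libraries, only replicate 3 had a mitochondrial share inside the winter range. Season and mitochondrial share can therefore hardly be told apart in this fit. On deposited TPM, where 42.4% of all genes were called higher, 9 of the 10 were called, all but *ERO1B*.

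Related isomerases moved with the members in part. Of 15 other genes of the family, 14 were listed and 12 tested. Of these, 4 were called higher and 1 lower, beside 6.14% and 6.67% of all genes. Past the adjusted p were 7 and 1, beside 11.0% and 10.2%. The median log2 fold change was 0.65, beside 0.03 over all genes. *TMX1*, a membrane-anchored isomerase, was at 89.3, 58.3, 35.9 and 62.5 scaled TPM in summer and at 16.0, 13.4, 7.66 and 12.6 in winter. Its seasons were far apart, with a log2 fold change of 2.19 (standard error 0.29, limma adjusted p = 0.00133) that exceeded that of any of the 10 members, and it stayed called with the mitochondrial share as covariate (1.68, limma adjusted p = 0.0365, against 1.82e-05 to 0.0365 over its 21 alternatives). *ERP44*, which retrieves ERO1 enzymes and PRDX4 from the Golgi to the ER, was at 155, 113, 80.0 and 108 scaled TPM in summer and at 34.4, 52.1, 54.6 and 30.8 in winter (log2 fold change 1.39, limma adjusted p = 0.00381). *TXNDC15* (1.26, limma adjusted p = 0.0144) and *TXNDC12* (1.16, limma adjusted p = 0.00919) were also called higher.

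*AGR2*, a family member known from mucus-secreting epithelia, went the other way, at 11.5, 16.9, 16.4 and 34.3 scaled TPM in summer and 59.2, 41.4, 313 and 69.6 in winter. The seasons did not overlap, but winter replicate 4 stood far above the other winter libraries. The log2 fold change was -2.17 (standard error 0.55, limma adjusted p = 0.0193), but the call was lost in 3 alternatives: without summer replicate 1 (-1.96, limma adjusted p = 0.0594), with the mitochondrial share as covariate (-1.76, limma adjusted p = 0.217) and on deposited TPM (-0.63, limma adjusted p = 0.243). The summed markers of surface epithelium, given above, were also higher in every winter library, and their part in this difference was not tested. *PDILT*, an isomerase known from the testis, was at 0 in all 8 libraries.

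Among 12 other redox enzymes of the secretory pathway, all tested, 3 were called higher and 1 lower, beside 6.14% and 6.67% of all genes. Past the adjusted p were 6 and 1, beside 11.0% and 10.2%, and the median log2 fold change was 0.58. The selenoprotein *SELENOT* was at 77.5, 65.8, 40.8 and 71.9 scaled TPM in summer and at 18.5, 18.4, 24.7 and 19.5 in winter, without overlap (log2 fold change 1.58, limma adjusted p = 0.00138). *GPX8*, an ER peroxidase known to associate with ERO1A in human cells, had a log2 fold change of 1.55 (limma adjusted p = 0.00994), beside 1.41 for *PRDX4*, and the related ER peroxidase *GPX7* had one of 0.58 (limma adjusted p = 0.0476). *SUMF2* had one of 1.17 (limma adjusted p = 0.00908). *QSOX1*, a sulfhydryl oxidase of the Golgi and the extracellular space that forms disulfides without ERO1, was lower in summer, at 11.1, 16.0, 11.7 and 13.7 scaled TPM against 38.4, 33.3, 46.4 and 50.3 in winter. No summer library came near the winter range, and the log2 fold change was -1.61 (standard error 0.19, limma adjusted p = 0.00106). It stayed called in 20 of 21 alternatives, with the mitochondrial share as covariate among them (-1.54, limma adjusted p = 0.0284). The exception was deposited TPM, where its log2 fold change was -0.11 (limma adjusted p = 0.833) and the median over all genes 0.89.

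Among partners that bind the isomerases, the lectins *CANX* and *CALR*, tapasin and 2 of 3 catalytic subunits of collagen hydroxylase were called higher in summer, while *P4HA3* and the isomerase partner *PPIB* (log2 fold change 0.48, limma adjusted p = 0.173) did not pass. Of 12 such genes, 7 were tested, of which 5 were called higher, beside 6.14% of all genes. No partner was called lower by limma, beside 6.67%, nor had any an unadjusted p under 0.05 in that direction (0 of 7). Their median log2 fold change was 1.04. *CANX*, the membrane-bound lectin calnexin that brings glycoproteins to ERp57, was at 461, 342, 278 and 391 scaled TPM in summer and at 141, 168, 179 and 130 in winter (log2 fold change 1.23, limma adjusted p = 0.00158). Its soluble counterpart *CALR* was at 2028, 1845, 906 and 1532 in summer and 638, 680, 696 and 825 in winter (log2 fold change 1.09, limma adjusted p = 0.00864). Both were without overlap and, like *PDIA3*, lowest of summer in replicate 3. *TAPBP*, the tapasin that pairs with ERp57 in MHC class I loading, had a log2 fold change of 1.02 (limma adjusted p = 0.00714).

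Of the catalytic subunits that pair with P4HB, *P4HA1* and *P4HA2* were called higher and *P4HA3* was not called. *P4HA1* was at 77.1, 58.6, 36.8 and 73.1 scaled TPM in summer and at 18.0, 19.2, 26.7 and 20.7 in winter, without overlap (log2 fold change 1.45, limma adjusted p = 0.00311), and *P4HA2* had a log2 fold change of 1.04 (limma adjusted p = 0.0135). *P4HA3* averaged 1.35 ± 0.0654 scaled TPM in summer and 8.04 ± 11.5 in winter (SD, n = 4), where winter replicate 4, at 25.2, stood far above the rest. Its direction was toward lower values in summer and did not pass (limma adjusted p = 0.195). Whether these changes differ from that of *P4HB* was not tested. *P4HB* was well above *P4HA1* and *P4HA2* in each season, at 890 against 61.4 and 128 in summer and 654 against 21.2 and 62.3 in winter (means of scaled TPM, n = 4). *CALR*, *P4HA2* and *TAPBP* lay just above 2-fold. The count of 5 fell to 3 without summer replicate 1, 2 without summer replicate 2 and 3 without winter replicate 1, with every log2 fold change of these genes still positive. The dual oxidase gene *DUOX1*, a partner of TXNDC11 in human cells, and its maturation factor *DUOXA1* were at 0 in all 8 libraries.

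**Figure D5:**
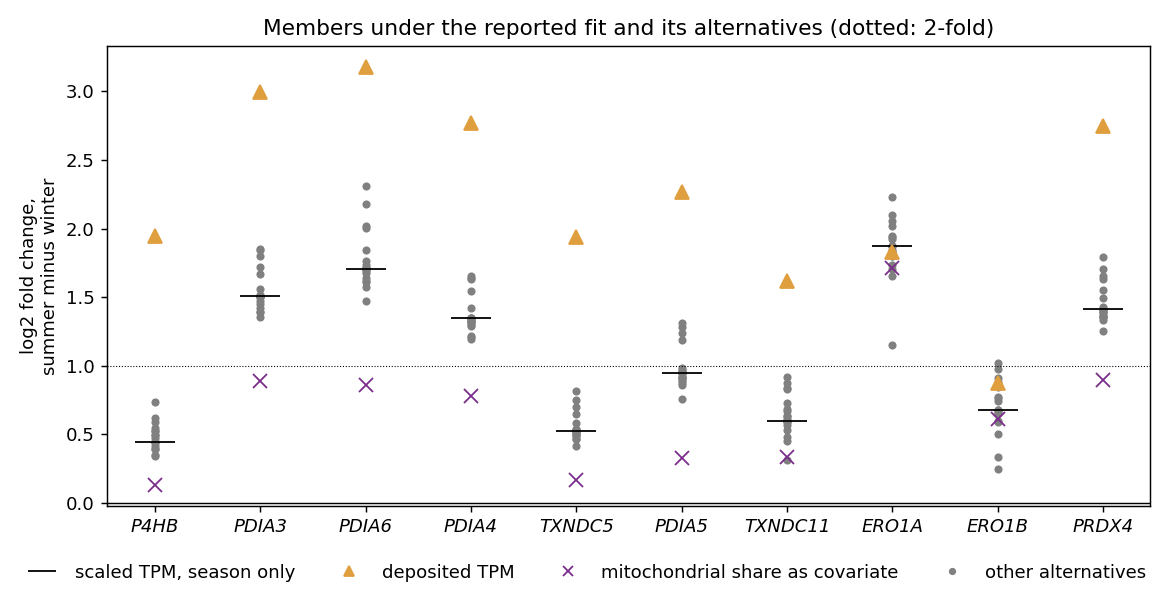
Log2 fold change (summer minus winter) of each of the 10 genes from limma on scaled TPM (black bar) and under 21 alternatives, with the fit on deposited TPM (triangles) and the one with the mitochondrial share as covariate (crosses) marked. All values are above 0, and *ERO1A* is the only gene of the 5 called that stays above 2-fold with the covariate.

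The genes whose course over the 8 libraries was most like the mean course of the 10 were *SLC29A1*, a nucleoside transporter, *TOR3A*, an ATPase of the ER, *RTN3*, a reticulon of ER tubules, *MCOLN1*, a lysosomal cation channel, and *TMED4*, of the p24 family of cargo receptors between ER and Golgi. Likeness was the root mean square difference of centred log2(scaled TPM + 1) over the 8 libraries, which was 0.0786 for *SLC29A1*, 0.115 for *TOR3A*, 0.122 for *RTN3*, 0.125 for *MCOLN1* and 0.127 for *TMED4*. Of the 10 themselves, *PDIA5* (0.208), *PRDX4* (0.210) and *PDIA4* (0.229) lay nearest to their common course, and *ERO1A* (0.566) and *ERO1B* (0.698) farthest from it. Neighbouring or overlapping gene models could share reads with a few of the 10. In the RefSeq annotation of ARS-UCD2.0, *PDIA3* overlaps *CATSPER2* and an snRNA, *PDIA6* overlaps *ATP6V1C2*, *PDIA4* overlaps a protein-coding model known only by a locus number, and *TXNDC11* overlaps a miRNA that was listed at 0 in all 8 libraries. *CATSPER2* reached at most 0.261 and *ATP6V1C2* at most 2.77 scaled TPM in any library, while *PDIA3* and *PDIA6* were never below 412 and 213. The snRNA and the model overlapping *PDIA4* were not matched by name, so that shared reads were not examined for them.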

How the data were processed

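The data analysed are gene-level TPM of 8 poly(A) RNA libraries. Per the study's methods, the authors trimmed and mapped the reads and made the deposited TPM values in CLC Genomics Workbench on ARS-UCD1.3, whereas the submitters' processing notes name bcl2fastq, Bowtie2 2.2.2, DESeq2 and ARS-UCD1.2. Which of these made the table is not settled. Every library sums to 1000000 with mitochondrial genes included, so a change in their share moves all other genes. The 13 mitochondrial protein genes were therefore left out of the total, the rest was set to 1000000, and a trimmed mean of M-values factor (30% of M and 5% of A trimmed, unweighted) was applied. The 13046 genes that exceeded a zFPKM of -3 in each of the 4 libraries of at least 1 season were fitted on log2(scaled TPM + 1) with limma 3.58.1 in R 4.3.3 (season only, trended variance, two-sided, Benjamini-Hochberg over all genes tested). Python 3.11.15 and matplotlib 3.10.9 made the figures. The fit was tested on simulated data with independent noise of the winter libraries' spread. These held no outlying library and no season difference in cell content. Read depth is not held by TPM, so no counting interval was computed.

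The 10 genes and all lists were chosen with earlier results of these data known. Named were the 10 genes, list genes called or at 0 in every library, and the 5 other genes of nearest course averaging 5 scaled TPM or more. Members were matched by symbol. Alternatives changed the scaling, pseudocount, filter, variance model, block and libraries. 2 of 21 (the mitochondrial covariate, and 2 libraries left out together) were chosen after seeing the data. RNA kit and winter month differ between labels and methods.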

Additional observations from a re-analysis of the deposited data

Results flagged for a closer look

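Of 30 groups of 4 libraries examined for a sample far from the others, 1 stood out, where chance alone gives about 1 in 20. The log2 ratio of *PDIA6* to *P4HB* was -1.17 in summer replicate 3, against 0.36, 0.19 and 0.40 in summer replicates 1, 2 and 5 and -1.76 to -0.94 in winter. The gap to the nearest summer library was 0.871 of the range, above Dixon's critical value. This ratio was added after the data were seen.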

How the results depend on the processing

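The calls of *PDIA3*, *PDIA4*, *PDIA6*, *ERO1A* and *PRDX4* held in 20 of 21 alternatives, and every log2 fold change of the 10 genes computed was positive. The cause of the changes below was not tested. On deposited TPM, 9 members were called and 10 passed the adjusted p (5 and 6 as reported), other family genes were 9 higher and 0 lower, other redox enzymes 10 higher and 0 lower, all genes 5529 higher and 81 lower (98.6% of calls higher, against 47.9% as reported), and the members' median was 2.11. There the median over all genes was 0.89. With the mitochondrial share as covariate, 0 members were called or passed, 1 other family gene was called higher and 0 lower, 1 redox enzyme higher and 0 partners, all genes were 99 higher and 169 lower (36.9% higher), and the median was 0.70. Without the factor, 1570 of all genes were called higher (70.7% of calls, with a median of 0.28 over all genes). With a pseudocount of 5, 388 genes were higher, 403 lower and 3 partners higher. Quantile normalization also gave 3 partners. A mean of at least 5 scaled TPM gave 511 lower and left *ERO1B* untested. Without summer replicate 3 and winter replicate 4, the members' median was 1.47. Leaving out 1 library at a time gave 505 to 1009 genes higher and 602 to 929 lower, 0 to 1 other family genes lower, 2 to 5 partners higher and a members' median of 0.99 to 1.47; the lowest count of all genes higher, 505, came without summer replicate 1.

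With the replicate number as a block, 5 members were called, 5 passed the adjusted p and the median was 1.10, and of all genes 1426 were called against 1671 without it, with 1180 in both. *CALR* fell under 2-fold (0.99), and *PDIA5* no longer passed the adjusted p (0.92, limma adjusted p = 0.0780). Replicates 2 and 4, each present in a single season, add nothing to the season difference in this fit. The same-number libraries' deviations had correlations of 0.04, 0.16 and 0.11, and those of differing numbers ran from -0.13 to 0.05. The 2 highest were thus of same-number libraries. As not all same-number values were over 0.1, the numbers were not taken as pairs, but pairing is not excluded. Each cow gave cells in winter and in summer, and the study's methods speak of corresponding replicates, but they do not say which cows made each pool, and the numbers themselves differ between seasons (2 in summer only, 4 in winter only). Depth per library is unknown here, so counting error could not be set beside the low values of *ERO1A* and *ERO1B*.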
